A study of Mus musculus with 5 samples.

Results

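The peaks of histone H2A ubiquitinated at lysine 119 (H2AK119Ub) in mouse haematopoietic progenitors transduced with HOXA9 were compared with those in non-transduced progenitors of the same genotype. The members were all 620 peaks listed for the HOXA9 library and all 1332 listed for the non-transduced library, 1952 of the 5132 peaks of the series. Peaks of the 2 lists were matched when they shared at least 1 bp. This divided them into peaks matched in both lists, HOXA9-only peaks and non-transduced-only peaks. A list-only peak had no listed peak of the other library over it, which does not show that the mark was absent there.

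The ubiquitin is attached by RING1A or RING1B, the ligase subunits of Polycomb repressive complex 1 (PRC1). The mark typically lies in broad domains over CpG islands of silent developmental genes, and the clusters of Hox genes are among its best known targets. HOXA9 is a homeodomain transcription factor of the HoxA cluster. It is active in haematopoietic stem and progenitor cells, declines as they mature, and is overexpressed in many acute myeloid leukaemias.

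Chromatin immunoprecipitation and sequencing (ChIP-seq) was done on lineage-negative bone marrow cells of C57BL/6 mice, fixed with 1% formaldehyde and sheared to an average of 200 to 300 bp. Both groups had the genotype R26CreERT2;Ring1a-/-;Ring1bf/f;Cdkn2a-/-. This is an inducible Cre at the Rosa26 locus, deletion of Ring1a and of the tumour suppressor locus Cdkn2a, and floxed Ring1b alleles. The labels do not say whether the Cre had been induced, how old the mice were or how many were used. One group was transduced with HOXA9 and the other was not transduced, and cells that received a vector without HOXA9 were not among the samples, so HOXA9 and the transduction itself cannot be told apart. With 1 library on each side, no test of the difference was possible, no p-value is given, and every difference below lies between 2 libraries. The read depth of both libraries was unknown, and depth and the yield of the immunoprecipitation also set how many peaks are called. Percentages are given with exact (Clopper-Pearson) 95% intervals, which cover counting error only and count each peak as if it were independent. The identity of the cells could not be checked against marker genes in peak lists.

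In the full lists, most HOXA9 peaks lay where the non-transduced library also had a peak, and most non-transduced peaks had no HOXA9 peak. The second part follows from list length. Matching was mostly one-to-one, so 620 HOXA9 peaks could match only a minority of 1332 non-transduced peaks, even if all were matched. Of the HOXA9 peaks, 411 of 620 were matched, a percentage of 66.3% (interval 62.4 to 70.0). Of the non-transduced peaks, 417 of 1332 were matched, or 31.3% (28.8 to 33.9). These are the background rates of matching against which the subsets below are read. In covered length the lists shared 8.31 Mb, which was 62.1% of the HOXA9 length, 26.5% of the non-transduced length and 22.8% of their union of 36.5 Mb. The HOXA9 library covered 5.07 Mb outside non-transduced peaks, of which 3.61 Mb lay in HOXA9-only peaks and 1.46 Mb in parts of matched peaks that reached beyond their partner. The non-transduced library covered 23.1 Mb outside HOXA9 peaks, all but 3.13 Mb of it in non-transduced-only peaks. When only the 620 best-scored non-transduced peaks were used, so that both lists were equally long, 41.5% of the HOXA9 peaks were matched, and 258 of the 620 non-transduced peaks (41.6%). At equal length the matched HOXA9 peaks were thus no longer the majority. The near equality of the 2 shares follows from equal lengths and mostly one-to-one matching. Of the covered length, 42.3% in HOXA9 and 33.3% in the non-transduced list were then shared.

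No match rested on a contact of a few bases. The smallest overlap of the 424 overlapping pairs was 1499 bp. On the other side of the rule, the closest HOXA9-only peak lay 706 bp from a non-transduced peak and the closest non-transduced-only peak 388 bp from a HOXA9 peak.

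The Hox clusters showed both outcomes. The HoxA, HoxC and HoxD clusters carried a matched domain in both libraries, and at the HoxB cluster no HOXA9 peak was listed. Hox genes encode the homeodomain factors that pattern the body axis, and those of HoxA and HoxB are also expressed in blood progenitors. The clusters and the other loci given by name were singled out after their peaks were seen, and their names come from general knowledge of the mm9 map, without an mm9 annotation.

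Over the HoxA cluster, the domain at chr6:52141970-52210236 in the non-transduced library was 68.3 kb wide and ranked 7 by score in its list of 1332. Its HOXA9 partner at chr6:52145743-52210289 was 64.5 kb wide and ranked 5 of 620. Their right ends lay 53 bp apart, and the HOXA9 peak began 3773 bp further right. A further pair followed after a short break, at chr6:52211246-52235228 (24.0 kb) in the non-transduced library and chr6:52211155-52237430 (26.3 kb) in HOXA9, and another at chr6:52250626-52277008 (26.4 kb) and chr6:52253754-52279768 (26.0 kb). All 4 libraries of the series had this break at nearly the same place, with peaks that ended between 52210236 and 52210289 and restarted between 52211155 and 52211261. The pair that began at 52250626 and 52253754 had unlike ranks, 1115 of 1332 in the non-transduced list and 18 of 620 in HOXA9. Ranks of the pair before it were 102 and 29. The peak at chr6:52101568-52123951 (22.4 kb, rank 1031) was non-transduced-only. Around it 1 HOXA9 number was missing, so an unlisted HOXA9 call could lie there. In the whole window the non-transduced library covered 141 kb and HOXA9 117 kb, of which 112 kb were shared.

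At the HoxB cluster the non-transduced library had 5 peaks that covered 139 kb, all of them unmatched. The widest, at chr11:96106629-96179318, was 72.7 kb, and the one with the best rank, at chr11:96041451-96066368, was 24.9 kb and ranked 60 of 1332. PML-RARa and MLL-AF9, the other 2 oncogene libraries of the series, had 3 peaks each there, over 144 kb and 113 kb. The peak numbers of the HOXA9 list skip 2 numbers between its listed peaks on either side of this stretch. Up to 2 unlisted HOXA9 calls could therefore lie in that interval.

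At the HoxC cluster, the widest peak of the HOXA9 list (160 kb, chr15:102742683-102902590) held the whole of a non-transduced peak of 133 kb at chr15:102743028-102876080. Left ends lay 345 bp apart, while the HOXA9 peak reached 26510 bp further right. The ranks were 242 of 620 in HOXA9 and 604 of 1332 in the non-transduced list, so a wide peak was not always a high-scoring one. A non-transduced-only peak of 9.23 kb lay further right at chr15:102971205-102980437 (rank 396), and 4 HOXA9 numbers were missing between the listed HOXA9 peaks around it. At the HoxD cluster, 1 HOXA9 peak of 65.3 kb (chr2:74491985-74557292) overlapped 2 non-transduced peaks of 48.1 kb and 2.39 kb that began at 74491958 and 74540920. The left ends of the wide HoxD peaks differed by 27 bp. Non-transduced-only peaks flanked them at chr2:74480394-74490862 and chr2:74580900-74592616. At HoxD 1 HOXA9 number was missing around the unmatched peaks, so an unlisted HOXA9 call could lie there.

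**Figure D1:**
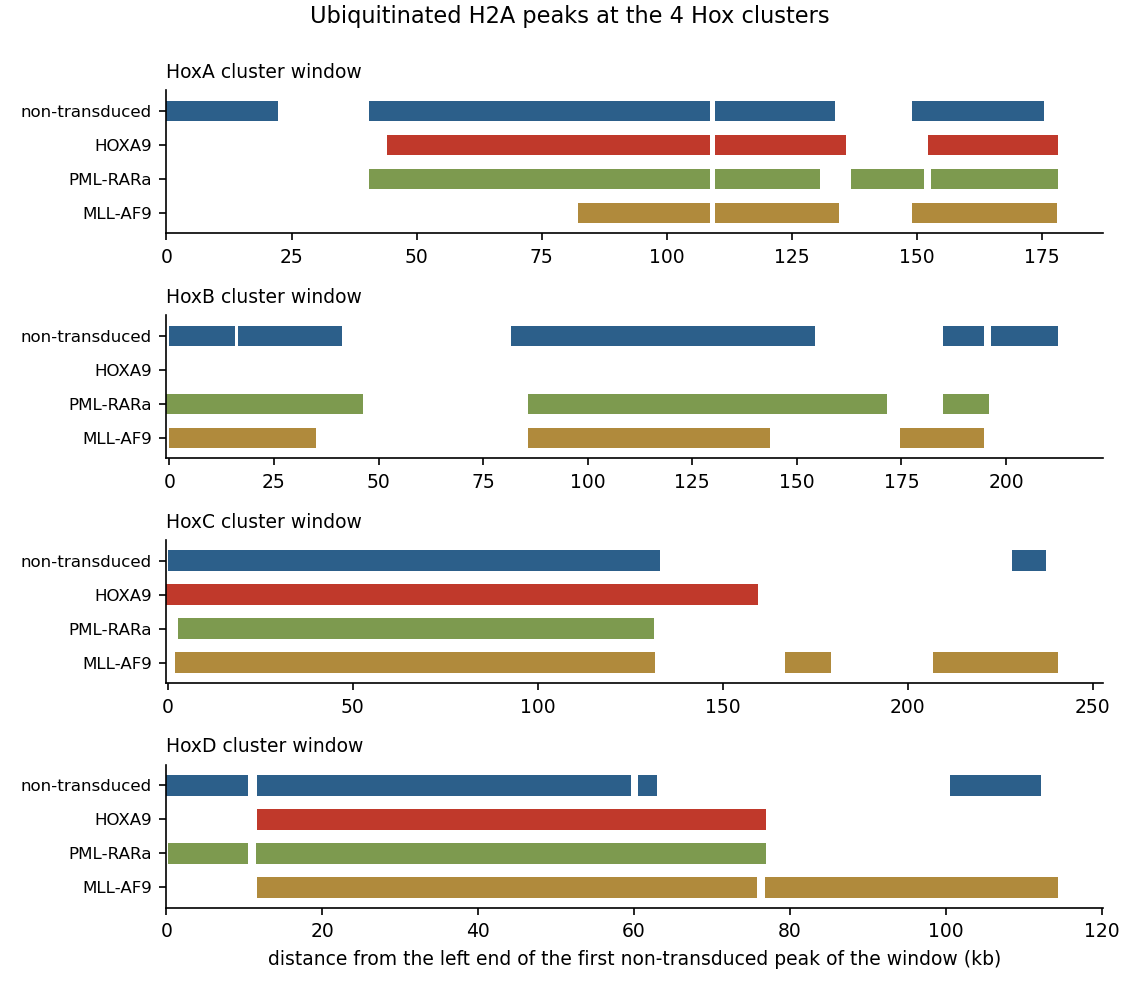
Peaks of the 4 libraries in windows at the HoxA, HoxB, HoxC and HoxD clusters, drawn to scale as bars along the distance in kb from the left end of the first non-transduced peak of each window. The HOXA9 row is empty at HoxB, where the non-transduced row has 5 bars, and the bars of both libraries overlap at the other clusters.

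Of 3 further developmental loci looked at after their peaks were seen, 2 were shared, and the third, at Foxf2 and Foxc1, had only unmatched peaks in both lists, of 22.3 kb in the non-transduced library and 30.8 kb in HOXA9. The top-ranked HOXA9 peak, 39.7 kb at chr11:85627585-85667244, lies at Tbx2 and Tbx4, genes of T-box factors of limb and organ development. It overlapped 2 non-transduced peaks of 21.9 kb and 18.2 kb, the second of which ranked 3 of 1332. A neighbouring pair at the same locus measured 28.5 kb in the non-transduced library and 24.2 kb in HOXA9. At Tlx1 and Lbx1, homeobox genes of spleen and of muscle and nerve development, each library had 3 peaks and all 6 were matched. The top-ranked non-transduced peak, 39.0 kb at chr19:45295482-45334443, had a HOXA9 partner of 64.0 kb that ranked 102 of 620. Together the HOXA9 peaks covered 137 kb at this locus against 101 kb in the non-transduced library. This locus thus had more covered length in the library with the shorter list.

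The best-ranked pair by the mean of its within-list ranks lay at chr15:88959562-89025974 in the non-transduced library (66.4 kb, rank 2) and at chr15:88954392-89024583 in HOXA9 (70.2 kb, rank 2). The HoxA pair came next, and then the widest of the top 5, at chr15:78445380-78577609 (132 kb, rank 5) and chr15:78453390-78577170 (124 kb, rank 15). The remaining pairs of the top 5 were on chromosomes 3 and 8. On chromosome 3 the peaks at chr3:89111961-89149681 (37.7 kb) and chr3:89115871-89153444 (37.6 kb) were nearly equal in width but shifted by 3910 bp at the left and 3763 bp at the right end. On chromosome 8 the non-transduced peak at chr8:73369023-73393956 was 24.9 kb and the HOXA9 peak at chr8:73365688-73388855 was 23.2 kb. Width ratios of HOXA9 to non-transduced in these 5 pairs lay between 0.929 and 1.06.

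Matching mostly joined 1 peak with 1 peak. The 404 groups of overlapping peaks held 385 one-to-one pairs, 12 groups in which 1 HOXA9 peak lay over 2 non-transduced peaks, 6 in which 1 non-transduced peak lay over 2 HOXA9 peaks, and 1 with 2 of each. The widest HOXA9 peaks over 2 non-transduced peaks were at chr18:38708392-38816079 (108 kb, over peaks of 41.8 kb and 36.1 kb), chr8:114193099-114287924 (94.8 kb, over 9.04 kb and 49.1 kb) and chr12:8829414-8916067 (86.7 kb, over 12.2 kb and 15.1 kb). The widest non-transduced peak, 149 kb at chr2:166919842-167068380, overlapped HOXA9 peaks of only 18.9 kb and 12.7 kb, the first of which began further left, at 166912028. Others with 2 HOXA9 peaks were at chr16:18534260-18640056 (106 kb, over 21.8 kb and 39.2 kb) and chr2:33408564-33506540 (98.0 kb, over 14.1 kb and 54.0 kb). Broken and joined domains thus occurred in both directions.

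Among the 385 one-to-one pairs, HOXA9 had the narrower peak in 242 and the wider one in 143. The median width was 18991 bp in HOXA9 against 22139 bp in the non-transduced list. The ratio of the widths had a median of 0.921 and quartiles of 0.659 and 1.10. When the pairs were divided into 4 equal classes by the mean of their 2 widths, the median ratio was 0.980 in the narrowest class, then 0.919 and 0.870, and 0.900 in the widest. The difference was therefore small among narrow pairs and larger among wide ones. Grouped by the non-transduced width alone, the medians ran from 1.04 to 0.737, a steeper course, but a grouping on 1 of the 2 widths itself tilts their ratio.

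**Figure D2:**
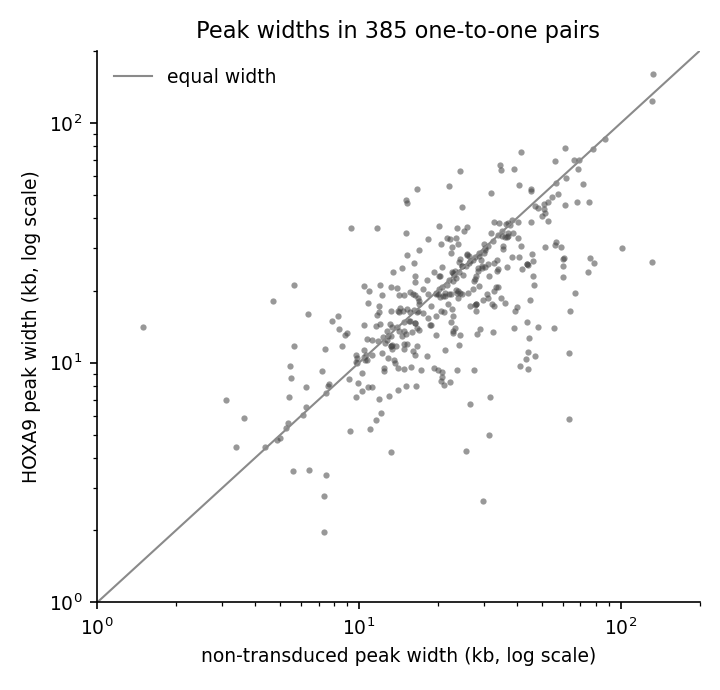
Width of the HOXA9 peak against the width of its non-transduced partner in 385 one-to-one pairs, both in kb on log axes; each point is 1 pair and the line marks equal widths. 242 points lie below the line and 143 above it.

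The ends of paired peaks showed where the widths differed. The left ends lay a median of 1784 bp apart (quartiles 278 and 6216) and the right ends 2048 bp (305 and 5861). In 254 of 385 pairs (66.0%, interval 61.0 to 70.7) at least 1 end of the HOXA9 peak lay within 1000 bp of the non-transduced end, and in 55 both did. In 199 pairs (51.7%) 1 end coincided in this sense and the other did not. The narrower peak lay wholly within the wider one in 219 pairs: HOXA9 inside non-transduced in 143, and the reverse in 76. In the remaining pairs the peaks were offset, 83 with HOXA9 to the right and 83 to the left. The 2 sides of a domain behaved alike, with the non-transduced peak reaching further out at the left end in 225 pairs and at the right end in 226.

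Pairs with the most unequal widths were taken from the 239 in which the wider peak exceeded 20 kb. The smallest ratio, 0.0892, was at chr9:99315027-99344683, where a non-transduced peak of 29.7 kb held a HOXA9 peak of 2.64 kb at chr9:99334146-99336789. At chr17:87140482-87203641 a peak of 63.2 kb held a HOXA9 peak of 5.83 kb, and at chr4:57129878-57192937 one of 63.1 kb held a HOXA9 peak 0.175 times as wide. Ratios of 0.160 and 0.167 were found at chr11:116075004-116106316 and chr2:29587335-29613016. In all 5 the HOXA9 peak lay wholly within the non-transduced one. In the other direction, HOXA9 peaks of 36.4 kb at chr10:19539797-19576183, 21.1 kb at chr14:70474942-70496073, 53.0 kb at chr5:115620262-115673215, 47.7 kb at chr6:120410694-120458438 and 36.3 kb at chr4:138000452-138036757 were 3.91, 3.75, 3.18, 3.15 and 3.10 times as wide as their partners. Across all pairs, HOXA9 was at most 0.5 times as wide in 54 and at least 2 times as wide in 14.

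The 209 HOXA9-only peaks were narrower and lower in their list than the matched HOXA9 peaks. Their median width was 13.6 kb (quartiles 8.01 and 22.8, highest 77.7) against 19.3 kb (12.4 and 28.8, highest 160). Their median rank by score was 355 of 620 against 259. The best-scored was 17.0 kb at chr11:69038234-69055245 (rank 12). It was followed by peaks of 11.4 kb at chr7:108964081-108975438 (rank 13), 36.9 kb at chr13:56299520-56336433 (rank 36) and 40.5 kb at chr4:148924008-148964533 (rank 40). These 4 also had peaks in PML-RARa and MLL-AF9, against 34.9% of all HOXA9-only peaks. Around the 4 named peaks 1, 2, 1 and 3 non-transduced numbers were missing. The peak next in order, 13.2 kb at chr16:90827351-90840574 (rank 50), had neither a PML-RARa nor an MLL-AF9 peak. No non-transduced number was missing around it.

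The widest HOXA9-only peak, 77.7 kb at chr18:65798213-65875887, lay 1.20 kb from a non-transduced peak. Those of 63.3 kb at chr4:150160725-150224022, 63.3 kb at chr11:81791608-81854858 and 63.1 kb at chr5:144861907-144924978 were 322 to 802 kb away from the nearest non-transduced peak. The last of the 5, 47.3 kb at chr4:117077105-117124370, was 20.4 kb away. At each of the 5, 1 non-transduced number was missing, so an unlisted non-transduced call could lie there. Each of the 5 had a peak in PML-RARa, in MLL-AF9 or in both.

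The 915 non-transduced-only peaks were also narrower than the matched ones of their list, with a median of 17.1 kb (quartiles 10.4 and 27.4) against 22.1 kb (13.8 and 34.5), and their median rank was 732 of 1332 against 454. High-scoring peaks were among them. The best-scored was 29.7 kb at chr2:27533208-27562859 (rank 6), then 51.1 kb at chr15:75526914-75577970 (rank 11) and 13.7 kb at chr7:133217714-133231453 (rank 15). All 3 had peaks in PML-RARa and MLL-AF9, against 32.5% of all non-transduced-only peaks. Around the 3 named peaks 1, 3 and 0 HOXA9 numbers were missing. Peaks at chr2:156599367-156615407 (16.0 kb) and chr11:98145629-98217092 (71.5 kb) shared rank 16, and only the second had peaks in the other libraries. Around each of them 2 HOXA9 numbers were missing.

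Very wide domains were also found without a HOXA9 peak. Non-transduced-only peaks of 108 kb at chr7:151770085-151878385 and 105 kb at chr7:151344935-151450432 lay close together, and one of 102 kb was at chr2:166417575-166519255. None of these 3 had a peak in PML-RARa or MLL-AF9. Peaks of 98.7 kb at chr11:118346116-118444813 and 98.7 kb at chr3:87532172-87630852 had both. Around these wide peaks, in the order given, 0, 1, 0, 2 and 1 HOXA9 numbers were missing. Of the 108 non-transduced peaks of 50 kb or more, 48 were matched (44.4%, interval 34.9 to 54.3), compared with 10 of 61 under 5 kb (16.4%, 8.15 to 28.1). In HOXA9, 31 of 35 peaks of 50 kb or more were matched (88.6%, 73.3 to 96.8) and 12 of 29 under 5 kb (41.4%, 23.5 to 61.1). A wider peak has more room to share 1 bp with another, so part of this course follows from the way of matching.

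**Figure D3:**
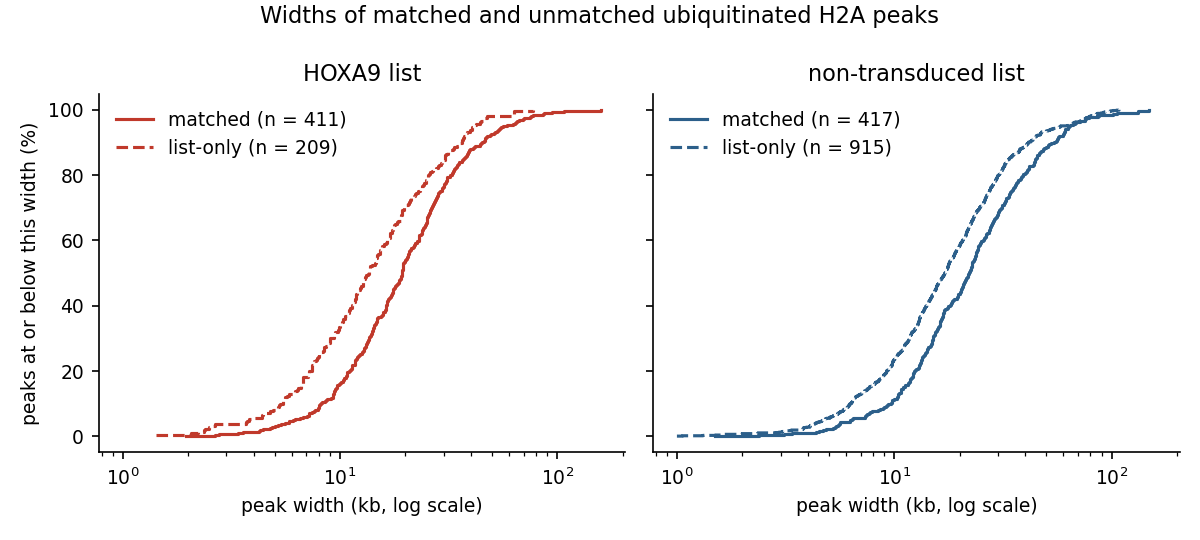
Cumulative share of peaks (%) by width in kb (log axis) for matched (solid) and list-only (dashed) peaks of the HOXA9 list and the non-transduced list. In both panels the dashed line lies to the left over most of its course, with medians of 13.6 against 19.3 kb in HOXA9 and 17.1 against 22.1 kb in the non-transduced list.

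Score and width were each related to matching. In the non-transduced list, 50.5% (interval 43.5 to 57.4) of the peaks in the widest 25% and the upper 50% of scores were matched, against 26.0% (18.5 to 34.7) of those equally wide and in the lower 50%. Among the narrowest 25% these figures were 28.2% (20.3 to 37.3) and 15.7% (11.2 to 21.3). In HOXA9, the upper and lower 50% had 82.3% (73.2 to 89.3) and 64.4% (50.9 to 76.4) in the widest class and 67.3% (53.3 to 79.3) and 40.0% (30.3 to 50.3) in the narrowest. The higher-scored peaks were thus matched more often in both width classes of both lists. Width and score themselves were weakly related across peaks, with Spearman's rho of 0.267 over 620 HOXA9 peaks and 0.236 over 1332 non-transduced peaks, which come from the same 2 libraries and are not independent replicates.

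The lower number of listed peaks in HOXA9 was spread over the genome. On 19 of 20 chromosomes HOXA9 had fewer peaks than the non-transduced library, with ratios of peak number between 0.323 on chromosome 1 (21 against 65) and 0.886 on chromosome 3 (31 against 35). Chromosome X had 2 peaks in each list. The matched share of non-transduced peaks ran from 12 of 60 on chromosome 17 (interval 10.8% to 32.3%) to 45.7% on chromosome 3 (16 of 35, 28.8 to 63.4), leaving out chromosome X. On each of the 20 chromosomes its interval held the genome-wide 31.3%. For HOXA9 peaks the interval held the genome-wide 66.3% on 17 chromosomes. The exceptions were chromosomes 15 (28 of 32 matched, 87.5%, interval 71.0 to 96.5) and 11 (51 of 65, 78.5%, 66.5 to 87.7) above it and chromosome 13 (9 of 21, 42.9%, 21.8 to 66.0) below it. On chromosomes 11 and 13 the nearer limit lay close to 66.3%. No allowance was made for looking at 20 chromosomes, and differences between chromosomes were not tested.

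**Figure D4:**
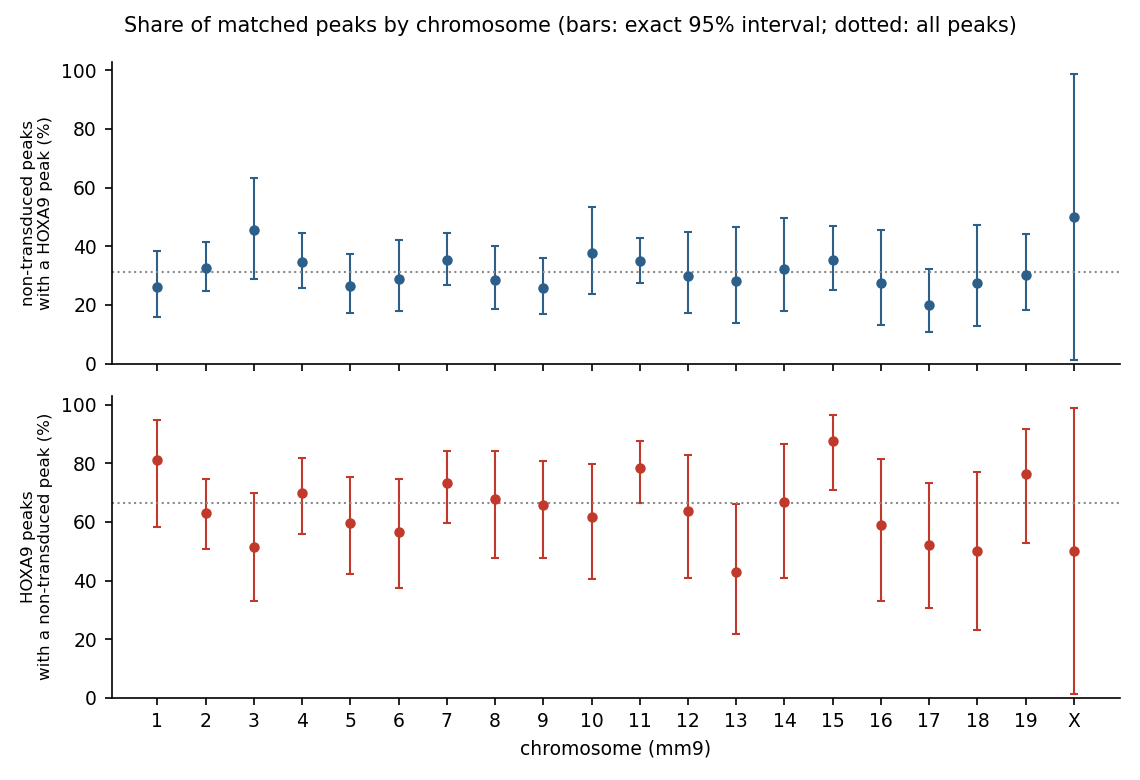
Matched share (%) of non-transduced peaks (upper panel) and of HOXA9 peaks (lower panel) by mm9 chromosome, with exact 95% intervals as bars and the share over all peaks as a dotted line. All 20 bars of the upper panel and 17 of the lower panel cross the dotted line.

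Few list-only peaks lay within 10 kb of the other list. The median distance of a HOXA9-only peak to the nearest of the 1332 non-transduced peaks was 222 kb. Of 209, 16 (7.66%) lay within 10 kb, 68 (32.5%) within 100 kb and 171 (81.8%) within 1 Mb. For non-transduced-only peaks the median distance to the nearest of the 620 HOXA9 peaks was 376 kb. Of 915, 43 (4.70%) lay within 10 kb, 211 (23.1%) within 100 kb and 694 (75.8%) within 1 Mb. To the nearest matched peak of their own list, HOXA9-only peaks had a median distance of 753 kb and 28 of 209 (13.4%, interval 9.09 to 18.8) lay within 100 kb. Among matched HOXA9 peaks, 97 of 411 (23.6%, 19.6 to 28.0) had another matched peak within 100 kb, with a median of 456 kb. In the non-transduced list the corresponding figures were 171 of 915 (18.7%, 16.2 to 21.4) and 106 of 417 (25.4%, 21.3 to 29.9), with medians of 511 and 430 kb. These distances depended on the length of the lists: in the upper 50% by score the medians for list-only peaks were 2842 kb in HOXA9 and 1047 kb in the non-transduced list.

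The HOXA9-only peaks farthest from a matched peak were at chrX:90519874-90553205 (33.3 kb) and, as neighbours, at chr12:41172877-41180365 (7.49 kb) and chr12:41248043-41267964 (19.9 kb). Around them 0, 1 and 1 non-transduced numbers were missing. The farthest non-transduced-only peaks were at chrX:70877193-70890132 (12.9 kb), chr4:9768931-9788614 (19.7 kb) and chr4:11310173-11321050 (10.9 kb). Around these 0, 7 and 7 HOXA9 numbers were missing. Along the chromosomes, non-transduced-only peaks fell into 287 uninterrupted runs with a median of 2 peaks. With 68.7% of the non-transduced peaks unmatched, runs of several peaks also arise without clustering, and clustering was not tested. The longest run held 19 peaks over 26.5 Mb (chr17:30039106-56569221), where HOXA9 had 2 peaks, unmatched by the definition of a run. The next held 18 over 7.45 Mb (chr2:156307989-163755548), with 1 HOXA9 peak, and 16 over 41.8 Mb (chr1:91863881-133710575), with none. A PML-RARa peak was found at 10, 8 and 5 of the peaks of these 3 runs and an MLL-AF9 peak at 5, 6 and 7, against 53.2% and 45.5% of all non-transduced-only peaks.

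The other 2 oncogene libraries were not used in the matching. They were transductions of the same genotype with the fusion genes PML-RARa and MLL-AF9. Of all HOXA9 peaks, 80.3% had a PML-RARa peak and 72.4% an MLL-AF9 peak, and 89.8% had at least 1 of the 2. Among the 411 matched HOXA9 peaks 394 had at least 1 (95.9%, interval 93.5 to 97.6), and among the 209 HOXA9-only peaks 163 (78.0%, 71.8 to 83.4). Both libraries had a peak at 73 HOXA9-only peaks (34.9%, 28.5 to 41.8), against 62.9% of all HOXA9 peaks. HOXA9-only peaks that both shared were wider (median 17.0 kb) than those in neither (46 peaks, median 11.6 kb).

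Of all non-transduced peaks, 75.5% had a peak in at least 1 of the other oncogene libraries and 46.0% in both. This held for 399 of the 417 matched in HOXA9 (95.7%, interval 93.3 to 97.4) and 606 of the 915 unmatched (66.2%, 63.1 to 69.3). In each of 4 width classes the matched peaks were ahead: 92.5% against 61.3% in the narrowest class of the non-transduced list and 97.1% against 71.8% in the widest, and 94.8% against 71.8% and 100% against 84.2% in HOXA9. Non-transduced-only peaks in neither other list numbered 309, and covered 6.30 Mb. They were somewhat narrower (median 16.0 kb) than the 297 found in both (19.3 kb), and their median score was also lower. All 4 classes share the same PML-RARa and MLL-AF9 libraries, and a longer list has more peaks to match.

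**Figure D5:**
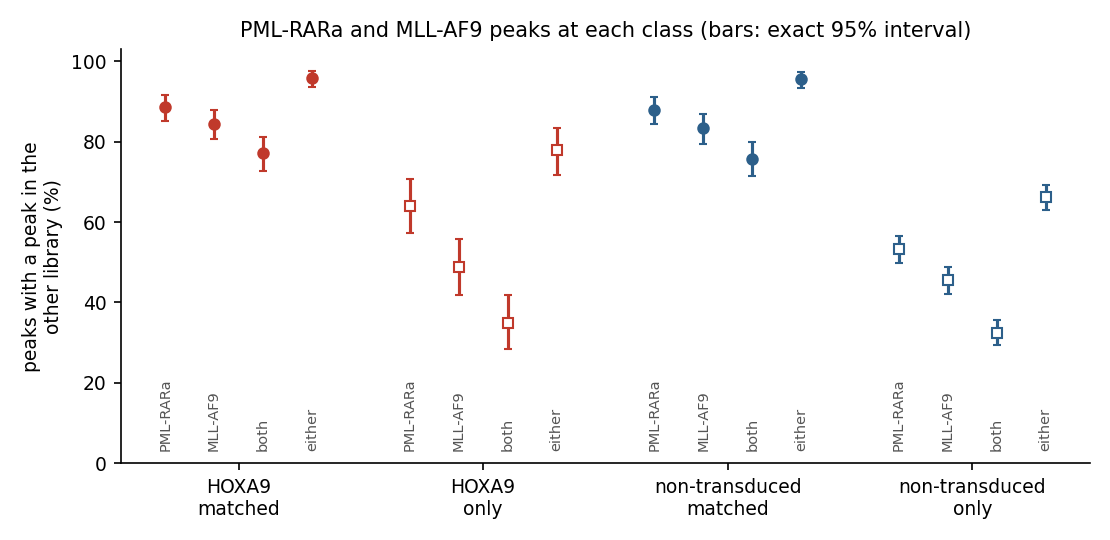
Share (%) of matched and list-only peaks of the HOXA9 and non-transduced lists that had a peak in PML-RARa, in MLL-AF9, in both or in either, with exact 95% intervals as bars. For either library, the list-only classes sit at 78.0% (HOXA9) and 66.2% (non-transduced), below the matched classes at 95.9% and 95.7%.

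Skipped peak numbers limit what an unmatched peak can show. The numbers of the HOXA9 list ran to 928, of which 308 were not listed, and those of the non-transduced list to 1766, of which 434 were not listed. The lists thus held 66.8% and 75.4% of their numbers, with a lowest listed score of 700 in both. Whether the unlisted calls fell below a common score was not tested. Around 83 of the 209 HOXA9-only peaks (39.7%, interval 33.0 to 46.7) no non-transduced number was missing, so no numbered call had been left out there. At the other 126 an unlisted non-transduced call could lie. In the opposite direction no HOXA9 number was missing around 329 of 915 non-transduced-only peaks.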

How the data were processed

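The authors called peaks library by library. Bowtie, MACS2 and the mouse build mm9 are named in the submitters' processing notes; versions, settings and the use of an input control are not stated there. A deposited list has 5 columns without a header. Apart from its lowest value, the deposited score of each peak, whose scale is not stated, was used only to rank peaks within their list. Positions are printed counting from 1. The input was not analysed here. Depth is unknown.

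Matches shared at least 1 bp. A one-to-one pair had no further overlap in either list. The regions named by rule were the 5 best-ranked pairs, the 5 smallest and 5 largest width ratios among pairs with a peak over 20 kb, the 5 best-scored and 5 widest list-only peaks of each list, the 3 farthest from a matched peak, the 3 widest multiple matches in each direction and the 3 longest runs. Members, lists and rules were chosen with earlier results of these data known. The gene table at hand is of another build, so genes and marker lists were not assigned to peaks, and no sequence was read. Alternatives changed the score threshold, the list length, the overlap rule and the merging of peaks. The interval code recovered the known answer in 20 of 20 simulated pairs of lists of 1332 peaks. Python 3.11.15, numpy 2.4.6, pandas 2.3.3, scipy 1.17.1, networkx 3.6.1 and matplotlib 3.10.9 were used.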

Additional observations from a re-analysis of the deposited data

How the results depend on the processing

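No paired analysis was possible because each group had 1 library, and no library could be left out. Shares of peaks were compared with their 95% interval, and other values, including shares of covered length, with a factor of 1.5. Of 64 values under alternatives 44 stayed within these bounds, and 20 did not; at equal list length the matched HOXA9 peaks, a majority of the full list, became a minority (257 of 620). At equal list length the shared part of the HOXA9 length fell from 62.1% to 42.3%. That of the non-transduced length rose from 26.5% to 33.3%. The factor of 1.5 counts both as within bounds. The width ratio of pairs stayed below 1 in all 4 alternatives (0.890 to 0.946). Matched non-transduced peaks made up 27.1% and 25.1% of those listed in the upper 75% and 50% of the lists by score, 41.6% at equal list length, 26.5% where 50% of the peak had to be covered, 23.6% where 50% of both had to be, and 34.5% with a gap of up to 10000 bp. The matched share of HOXA9 peaks was, in the same order without the last, 58.1%, 52.9%, 41.5%, 62.3% and 50.6%. For matched peaks with a PML-RARa or MLL-AF9 peak, the upper 75% and 50% gave 92.2% and 90.2% in HOXA9 and 92.3% and 89.8% in the non-transduced list. For list-only peaks, equal length gave 85.1% in HOXA9 and 80.4% in the non-transduced list, and the upper 50% gave 58.3% in the latter. Median distances to a matched peak rose to 2842 kb for HOXA9-only and 1047 kb for non-transduced-only peaks in the upper 50%, where fewer peaks remain by construction. In the upper 75% and 50% the PML-RARa and MLL-AF9 lists were cut as well. At equal length 363 HOXA9 peaks counted as HOXA9-only, against 209 in the full lists. Beyond these settings, the cause of the other changes was not tested. Unknown depth means that a missing peak is not shown to be a missing mark.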

Other observations

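Loci of regulators of blood stem cells were looked at after their peaks had been seen, again named from general knowledge of mm9. At Gata2, which encodes a transcription factor needed by haematopoietic stem cells, HOXA9 had a peak of 30.5 kb at chr6:88061940-88092459 and a further one at chr6:88135795-88160830. The non-transduced library had none in this window, while PML-RARa and MLL-AF9 had 3 peaks each over 132 kb and 142 kb. At most 1 non-transduced number was missing there. At the start of Mecom, a gene of a stem cell zinc finger factor activated in some leukaemias, the HOXA9 peak at chr3:30402154-30418382 was 16.2 kb and ranked 601 of 620, near the lower end of its list. PML-RARa had a peak of 13.7 kb there, and no peak was listed for the non-transduced or MLL-AF9 library. Around the HOXA9 peak 1 non-transduced number was missing, so an unlisted non-transduced call could lie there.

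The opposite pattern was seen at the start of Prdm16, a further stem cell zinc finger gene. The non-transduced peak at chr4:153995939-154018295 was 22.4 kb and ranked 1115 of 1332, towards the lower end of its list. MLL-AF9 had a peak of 13.1 kb, and neither HOXA9 nor PML-RARa had a listed peak. At the forkhead genes Foxf2 and Foxc1 the 2 libraries marked neighbouring places: the non-transduced peak was at chr13:31701836-31724094 (22.3 kb, rank 75 of 1332) and the HOXA9 peak at chr13:31884656-31915437 (30.8 kb, rank 72 of 620). PML-RARa and MLL-AF9 had a peak at both places. At each of these places 1 number of whichever of the HOXA9 and non-transduced lists had no peak was missing, so an unlisted call could lie there.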
